A study of Mus musculus with 4 samples.

Results

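The genes described here are 47 genes of DNA repair and replication fork protection, taken by symbol from a raw count table of 16360 gene symbols. They were chosen as a list of repair genes, with earlier results of these data known. All 47 were in the table and passed the filter on low counts, among 13575 genes that did. The study sequenced poly(A) RNA of recruited alveolar macrophages, the monocyte-derived cells that enter the airspaces of an injured lung, sorted for high CD64 and CD11b with low Siglec-F. All mice were male, aged 8 to 10 weeks, of the strain given as CD57/Bl6, and all had been given bleomycin through the trachea (100 µl at 1 U/ml) 7 days before the sort, so no untreated cells were measured. One genotype was wild type (WT) and the other carried R213G, an amino acid substitution in the secreted antioxidant enzyme EC-SOD, on both alleles, with 2 libraries each. Whether a library stands for 1 mouse or a pool is not in the labels. The p-values therefore reflect no more than how these libraries vary, which may be technical.

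Bleomycin cuts DNA through oxygen radicals and leaves single-strand and double-strand breaks. A cell mends double-strand breaks either by homologous recombination, which copies an intact sister strand and works in S and G2 phases, or by end joining, which ligates the ends at any phase. The Fanconi pathway and structure-specific nucleases resolve crosslinks and stalled replication forks, while base excision and mismatch repair correct damage to single bases and replication errors. Transcripts of many recombination and fork genes are known to rise when cells divide, whereas those of base excision and end joining depend less on the cell cycle.

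Total counts were 33488569 to 35176210 per library. Levels are given as CPM (counts for each 1e6 of TMM-scaled library size), and levels of different genes are compared only as CPM per kilobase of exon. Genes that define macrophages were abundant in every library: the summed level of 7 markers (Fcgr1, the gene of CD64, with Adgre1, Mertk, Csf1r, Cd68, Itgam and Itgax) came to 5824 and 6404 CPM in the R213G libraries and to 6626 and 6016 CPM in the WT libraries. Siglecf stood at 10.8 to 12.1 CPM. Of other cell types, the 5 T and NK cell genes in the table summed to 1.29 to 3.02 CPM in R213G and 0 to 2.03 CPM in WT (Cd3e at 2.20 CPM in R213G replicate 1 and 1.12 CPM in WT replicate 1), and Col1a1, of fibroblasts, stood at no more than 0.0287 CPM. The 6 epithelial genes summed to 102 to 221 CPM in R213G and 99.1 to 165 CPM in WT, mostly Cdh1, with Sftpc at 0 in replicate 1 of both genotypes. The 3 endothelial genes came to 92.2 to 138 and 114 to 131 CPM, mostly Vwf. The 5 neutrophil genes came to 137 to 159 and 180 to 187 CPM, mostly Mmp8 and Csf3r. S100a8, also of neutrophils, was highest in R213G replicate 1, at 19.7 CPM against 11.1 to 13.2 CPM in the other libraries. The 6 genes of resident alveolar macrophages came to 254 to 282 and 206 to 576 CPM, with Chil3 at 504 CPM in WT replicate 2. R213G replicate 1 had the fewest genes with a count, 13584 against 14598 to 15194 in the other libraries. In bulk RNA, fewer cells of a kind and less RNA per cell cannot be told apart.

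Per kilobase the repair genes spanned a wide range. H2afx, the histone variant H2A.X that is phosphorylated around breaks, was highest at a mean of 54.3 CPM per kilobase over the 4 libraries. Parp1, the sensor that marks nicked DNA with poly(ADP-ribose), followed at 31.2 CPM per kilobase. All other members lay at or below 9.16 CPM per kilobase, the level of the related enzyme Parp2. Rad51b, a recombination gene, was lowest at 0.532. By role, the median level was 7.30 CPM per kilobase for the 11 break sensors, mediators and checkpoint kinases and 6.50 for the 5 genes of single-strand break and mismatch repair. It was 3.24 for the 6 nuclease and fork restart genes, 2.22 for the 6 end-joining genes, 1.43 for the 6 Fanconi genes and 1.19 for the 13 recombination genes.

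**Figure D1:**
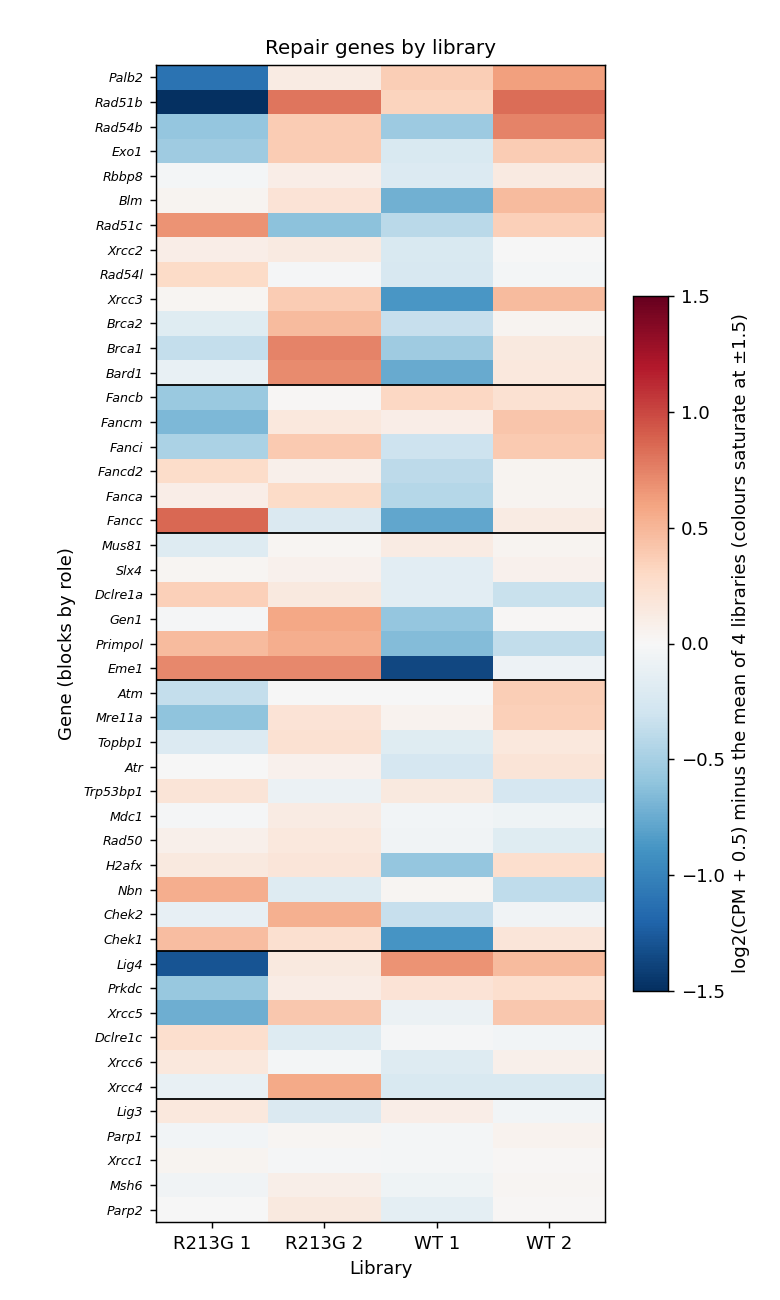
Level of each of the 47 genes (rows, in 6 blocks by role) in each of the 4 libraries (columns), as log2(CPM + 0.5) minus the mean of the row, with colours that saturate at ±1.5. The recombination block is blue in R213G 1 and WT 1 for many genes, Eme1 and Primpol are red in both R213G libraries, and the lowest block is close to white throughout.

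The main question was whether R213G macrophages carried other levels of these genes than WT macrophages. None of the 47 passed: 0 were called at the adjusted threshold of 0.05 (quasi-likelihood test of edgeR with Benjamini-Hochberg adjustment over all 13575 genes, adjusted p = 0.9996 for every member), beside 0% of all genes tested. DESeq2 and limma voom called 0 members as well. By unadjusted p under 0.05, 2 members, Primpol and Eme1, stood higher in R213G, which is 4.26% of the 47 beside 0.936% of all genes tested, and 0 stood lower, beside 1.29%. Both genes were known from earlier results when the list was made. The log2 fold change (R213G minus WT) was positive for 32 of the 47 (68.1%), beside 49.1% of all genes tested, with a median of 0.106 beside -0.006. That median was -0.005 without WT replicate 1 and 0.246 without WT replicate 2.

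In both R213G libraries 11 members (23.4%) lay above both WT libraries, beside 13.7% of all genes tested. They were Xrcc2, Rad54l, Fanca, Fancd2, Eme1, Dclre1a, Primpol, Rad50, Chek1, Mdc1 and Xrcc4. In 5 members (10.6%) both R213G libraries lay below both WT libraries, beside 15.2% of all genes tested: Palb2, Fancb, Mus81, Prkdc and Lig4. For 42 of the 47 (89.4%) the gap between the libraries of a genotype, on the log2 scale, was larger than the difference between genotype means, beside 83.3% of all genes tested.

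**Figure D2:**
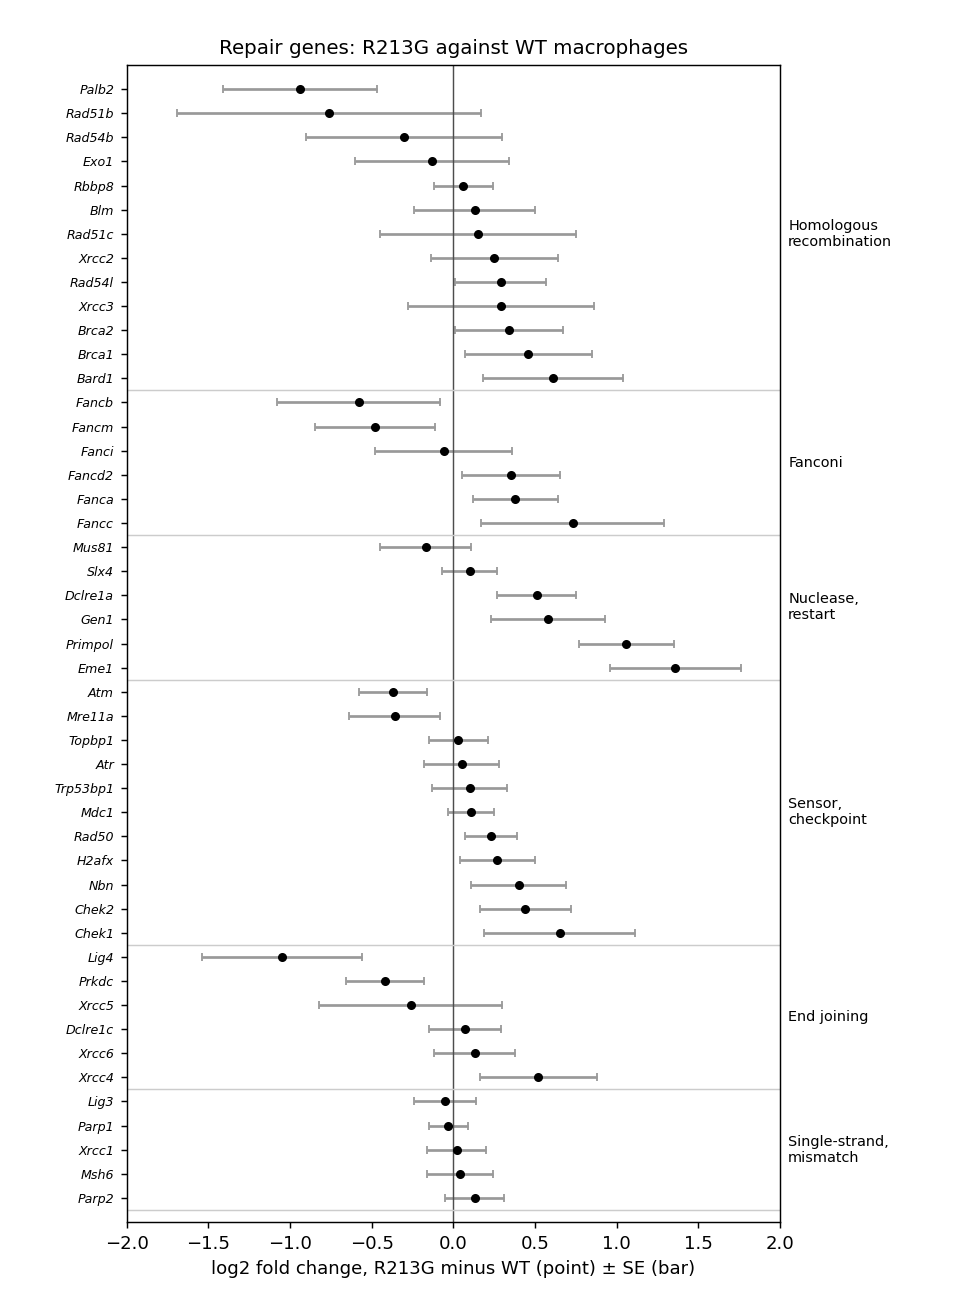
Log2 fold change, R213G minus WT (point), with its SE (bar), for the 47 genes in 6 blocks by role. Values run from -1.05 (Lig4) to 1.36 (Eme1), no gene passed the adjusted threshold, and the 5 genes of single-strand break and mismatch repair lie between -0.05 and 0.13.

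The nuclease and fork restart genes held both members of smallest p. Primpol encodes a primase and polymerase that restarts DNA synthesis beyond a lesion, and lies on chromosome 8 from 46575594 to 46617212 (GRCm38, minus strand). It had 16.6 and 17.5 CPM in the R213G libraries and 7.32 and 9.03 CPM in the WT libraries. The genotypes did not overlap, and the libraries of a genotype lay close together. The log2 fold change was 1.06 ± 0.29 (SE, unadjusted p = 0.00513, edgeR), and it stayed between 0.92 and 1.22 when each library was left out in turn. On the other strand, the gene Cenpu, which encodes a centromere protein, shares 16.7% of the exon bases of Primpol, and Cenpu itself stood at 7.00 and 9.43 CPM in R213G and 6.14 and 7.20 CPM in WT. Whether reads were counted by strand is not given in the sources used here.

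Eme1 encodes the partner that MUS81 needs to cut branched DNA at stalled forks, and lies on chromosome 11 from 94644996 to 94653964 (minus strand). Its level was 15.3 CPM in both R213G libraries and 3.21 and 8.60 CPM in WT replicates 1 and 2. The R213G libraries were alike. The WT libraries differed from each other by 1.41 in log2 CPM, a little less than the difference of 1.53 between genotype means on that scale. The log2 fold change fitted by edgeR was 1.36 ± 0.40 (unadjusted p = 0.0077). Left-out libraries moved that fold change from 0.83 without WT replicate 1 to 2.25 without WT replicate 2. Lrrc59 and Mrpl27, on the other strand, share 10.7% of the exon bases of Eme1. Lrrc59 was at 243 and 245 CPM in R213G and 228 and 237 in WT, and Mrpl27 at 16.4, 8.88, 10.2 and 9.03 CPM in R213G 1, R213G 2, WT 1 and WT 2.

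Mus81 itself, the catalytic subunit, had 10.9 and 12.8 CPM in R213G and 13.7 and 12.9 CPM in WT (log2 fold change -0.17 ± 0.28). Dclre1a, a nuclease of crosslink repair also known as SNM1A, had 23.9 and 20.5 CPM in R213G and 16.5 and 14.6 CPM in WT. Its genotypes did not overlap (log2 fold change 0.51 ± 0.24, unadjusted p = 0.0609), and the fold change was 0.40 to 0.62 with any 1 library left out. Gen1, which resolves Holliday junctions, stood at 0.58 ± 0.35. Slx4, the scaffold that gathers these nucleases, had the highest level of this group per kilobase, 5.79, with 45.3 and 46.4 CPM in R213G and 39.5 and 46.2 CPM in WT. Fold changes were positive in 5 of the 6 genes (83.3%), beside 49.1% of all genes tested, at a median of 0.544. Primpol and Eme1 are among them and were known from earlier results when the list was made. The share and the median are thus partly set by that choice.

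**Figure D3:**
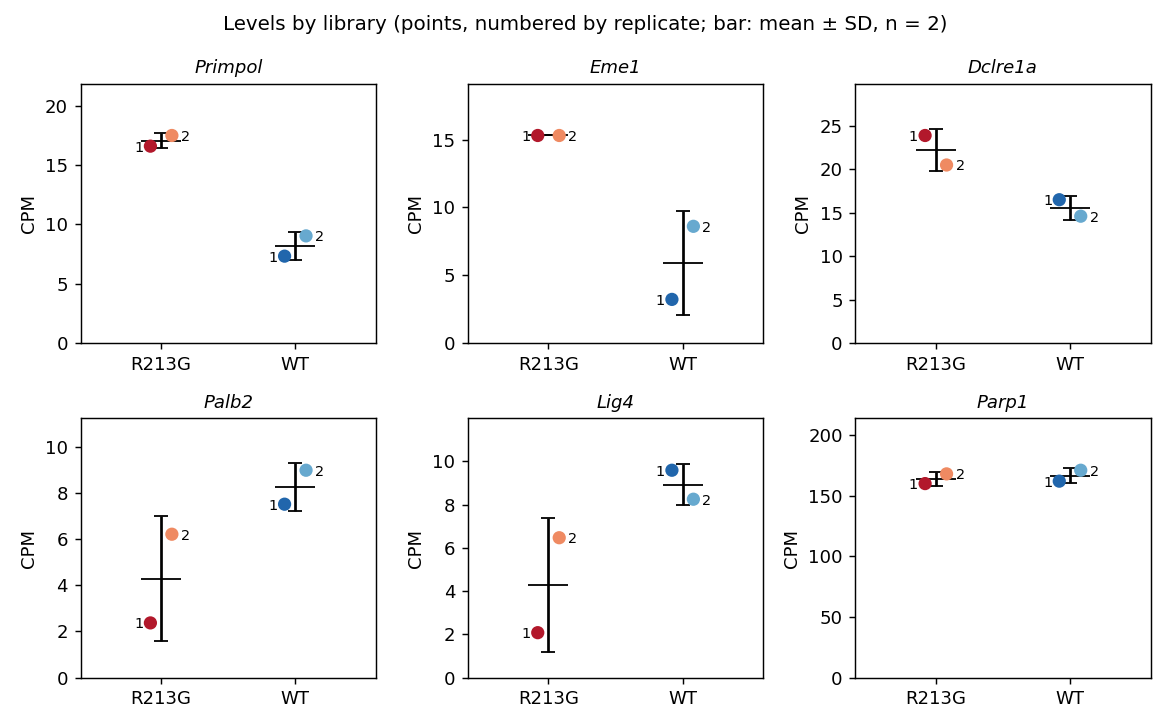
CPM of 6 repair genes in each library (points numbered by replicate) with the mean and SD of the 2 libraries of each genotype. Primpol, Eme1 and Dclre1a lie higher in both R213G libraries, Palb2 and Lig4 lie lower there with R213G 1 lowest, and Parp1 lies between 160 and 171 CPM in all 4.

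Promoter windows from 250 bases before to 50 bases after the gene start (RefSeq, build GRCm38.p6) were read for 38 of the 47 genes. Those with no entry were Rad54b, Exo1, Fancd2, Rad50, Nbn, Xrcc2, Prkdc, H2afx and Rbbp8. Since most recombination genes were higher in replicate 2 of each genotype, the windows were searched on both strands for letters bound by E2F factors, which drive S-phase genes (TTTCCCGC, TTTGGCGC, TTTGCCGC and TTTCGCGC), and for CCAAT, the NF-Y box. An E2F-type match stood in 8 of the 38 genes (21.1%) and in 9 of their 42 windows (21.4%), beside 2.26% of all 32851 windows. CCAAT stood in 21 genes, or 23 windows (54.8%), beside 37.4% of all windows. The 8 genes with an E2F-type match were Bard1, Brca2, Chek2, Mdc1, Msh6, Rad51c, Topbp1 and Xrcc6. Of these, Bard1, Brca2 and Rad51c are recombination genes. No share was computed for the recombination genes alone, of which Rad54b, Exo1, Xrcc2 and Rbbp8 had no entry. Primpol and Eme1 held no E2F-type match within these letters and this window.

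The windows of Primpol and Eme1 are shown as the members that differed most between genotypes, and those of Brca2 and Bard1 as recombination genes with an E2F-type match. Rad51c, also a recombination gene with a match, is not shown. Its replicate 2 was the lower library in R213G (6.24 and 2.27 CPM) and the higher in WT (2.69 and 4.92 CPM). Capitals mark E2F-type and CCAAT matches on either strand. In Primpol a CCAAT match begins 81 bases before the start, in Brca2 the E2F-type match begins 168 bases before it and in Bard1 209 bases before it. The windows lie at chr8:46617178-46617477 (minus strand) for Primpol, chr11:94653694-94653993 (minus) for Eme1, chr5:150522371-150522670 (plus) for Brca2 and chr1:71102923-71103222 (minus) for Bard1.
Primpol: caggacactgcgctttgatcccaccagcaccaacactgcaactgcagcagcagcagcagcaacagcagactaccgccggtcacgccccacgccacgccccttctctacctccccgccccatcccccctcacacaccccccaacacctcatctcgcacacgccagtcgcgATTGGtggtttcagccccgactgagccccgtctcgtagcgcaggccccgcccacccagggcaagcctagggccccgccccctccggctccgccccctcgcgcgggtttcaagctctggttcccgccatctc
Eme1: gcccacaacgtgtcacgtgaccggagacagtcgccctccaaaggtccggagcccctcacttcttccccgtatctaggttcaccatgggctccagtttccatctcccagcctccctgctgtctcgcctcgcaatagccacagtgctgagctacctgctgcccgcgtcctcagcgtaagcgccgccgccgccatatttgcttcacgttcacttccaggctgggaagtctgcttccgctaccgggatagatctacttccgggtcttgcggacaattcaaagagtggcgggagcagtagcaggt
Brca2: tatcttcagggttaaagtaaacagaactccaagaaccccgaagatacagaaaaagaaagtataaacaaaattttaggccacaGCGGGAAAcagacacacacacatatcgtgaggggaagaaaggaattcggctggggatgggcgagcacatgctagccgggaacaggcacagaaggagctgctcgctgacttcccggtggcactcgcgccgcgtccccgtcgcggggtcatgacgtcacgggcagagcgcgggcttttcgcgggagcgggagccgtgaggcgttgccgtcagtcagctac
Bard1: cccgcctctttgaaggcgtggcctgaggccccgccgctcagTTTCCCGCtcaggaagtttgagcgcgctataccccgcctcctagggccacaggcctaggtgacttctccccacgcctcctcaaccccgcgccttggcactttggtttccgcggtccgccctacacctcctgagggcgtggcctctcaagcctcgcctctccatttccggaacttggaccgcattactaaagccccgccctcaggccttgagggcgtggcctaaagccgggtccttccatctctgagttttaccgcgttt

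The median log2 fold change was 0.136 for the 8 genes with one and 0.085 for the 30 without. The median difference of WT replicate 2 minus WT replicate 1 was 0.33 and 0.30 on the log2 scale, and that of R213G replicate 2 minus R213G replicate 1 was 0.30 and 0.18. These are descriptions of sequence letters and carry no test.

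In 12 of the 13 recombination genes (92.3%, Xrcc2 being the exception) the gap within a genotype was larger than the difference between genotype means, near the 83.3% of all genes tested. All 13 were higher in WT replicate 2 than in WT replicate 1, beside 50.7% of all genes tested, with a median difference of 0.65 on the log2 scale. Of the same genes 11 were higher in R213G replicate 2 than in R213G replicate 1, beside 52.2%, with a median of 0.67. In replicates 1 and 2 the mean log2 CPM of the 13 genes was 2.42 and 3.25 for R213G, and 2.57 and 3.30 for WT. The mean of 2.42 includes Rad51b at 0 counts, a gene with a log2 gap of 5.68 between the R213G libraries. By single genes, WT replicate 1 was the lowest library for 8 of the 13 and R213G replicate 1 for 4. Between genotypes 9 of 13 fold changes were positive, with a median of 0.147.

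Brca1 and Bard1, which form the ubiquitin ligase that starts recombination, showed this pattern. Brca1 had 12.8 and 28.0 CPM in R213G and 11.3 and 18.4 CPM in WT (0.46 ± 0.39 on the log2 scale, unadjusted p = 0.267, edgeR). Bard1 had 8.44 and 15.4 CPM in R213G and 5.24 and 10.3 CPM in WT (log2 fold change 0.61 ± 0.43). In both genes replicate 2 of each genotype was the higher library and the genotypes overlapped. Brca2, a mediator of strand exchange, had 10.6 and 17.0 CPM in R213G and 9.41 and 12.4 CPM in WT.

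Palb2, the bridge between BRCA1 and BRCA2, had the opposite sign. It had 2.37 and 6.21 CPM in R213G and 7.51 and 8.98 CPM in WT, with no overlap and R213G replicate 1 lowest. Its log2 fold change was -0.94 ± 0.47 (unadjusted p = 0.0778, edgeR), or -0.41 with R213G replicate 1 left out and -1.80 with R213G replicate 2 left out.

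Rad51b was not seen in R213G replicate 1, at 0 counts, which allows up to 3 counts or 0.0879 CPM (counting error only). The other libraries held 103 counts in R213G replicate 2 and 66 and 104 in WT. The related genes Rad51c (6.24 and 2.27 CPM in R213G, 2.69 and 4.92 in WT), Xrcc2 (6.65 and 6.87, 5.21 and 6.15) and Xrcc3 (3.78 and 4.97, 1.79 and 5.33) were also low. Rad54l, a motor protein that acts in strand invasion, stood at 16.9 and 13.6 CPM in R213G and 11.5 and 13.4 CPM in WT. Its relative Rad54b had 2.49 and 5.32 against 2.57 and 7.02 CPM, and it shares 35.8% of its exon bases with Fsbp on the same strand, so its counts are uncertain. Rbbp8, which encodes the end-resection factor CtIP, had the highest level of this group per kilobase at 3.18, with 38.9 and 42.6 CPM in R213G and 34.4 and 43.5 CPM in WT. The resection nuclease Exo1 and the helicase Blm had log2 fold changes of -0.13 ± 0.47 and 0.13 ± 0.37.

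The Fanconi genes split by direction, with 3 of 6 positive and a median of 0.143. Fanca, a subunit of the core complex, had 19.4 and 22.2 CPM in R213G and 13.3 and 18.6 CPM in WT (0.38 ± 0.26 on the log2 scale, unadjusted p = 0.18, edgeR), with no overlap. It was the highest of the group per kilobase, at 2.10. Fancc had 8.47 and 3.76 CPM in R213G and 2.39 and 4.90 CPM in WT. R213G replicate 1 alone lay above the rest (log2 fold change 0.73 ± 0.56). Fancm, the translocase that brings the complex to a fork, had 6.06 and 11.2 CPM in R213G and 10.7 and 13.4 CPM in WT (-0.48 ± 0.37). Of the pair that the complex ubiquitinates, Fancd2 stood at 0.35 ± 0.30 and Fanci at -0.06 ± 0.42. Fancb, on chromosome X, stood at -0.58 ± 0.50 with 2.37 and 3.76 CPM in R213G and 4.75 and 4.46 CPM in WT.

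Among the 11 sensors, mediators and checkpoint kinases, fold changes were positive in 9, at a median of 0.106. The genes of the MRE11 complex, which binds broken ends, had fold changes of either sign. Rad50 had 48.0 and 50.9 CPM in R213G and 44.1 and 40.2 CPM in WT (0.23 ± 0.16 on the log2 scale, unadjusted p = 0.18, edgeR), with no overlap. Nbn stood at 0.40 ± 0.29, with 31.4 CPM in R213G replicate 1 and 16.2 to 21.7 CPM in the other 3 libraries. Mre11a stood at -0.36 ± 0.28, with 16.4 CPM in R213G replicate 1 and 26.1 to 32.4 CPM in the others.

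The apical kinase Atm, which responds to double-strand breaks, had 25.7 and 33.0 CPM in R213G and 33.0 and 42.7 CPM in WT (-0.37 ± 0.21 on the log2 scale, unadjusted p = 0.116, edgeR). Atr, its counterpart at stalled forks, stood at 0.05 ± 0.23, and its activator Topbp1 at 0.03 ± 0.18. Chek2, the kinase downstream of ATM, had 19.5 and 31.0 CPM in R213G and 16.6 and 20.5 CPM in WT (0.44 ± 0.28), and the libraries overlapped. Chek1, the kinase downstream of ATR, had 7.91 and 6.70 CPM in R213G and 2.81 and 6.41 CPM in WT (0.65 ± 0.46). Its WT replicate 1 was far below the other 3 libraries, and the fold change was 0.19 without it.

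H2afx showed the same low library, at 81.3 and 83.2 CPM in R213G and 48.8 and 87.1 CPM in WT replicates 1 and 2. Its log2 fold change of 0.27 ± 0.23 became -0.08 without WT replicate 1 and 0.75 without WT replicate 2. Of the chromatin mediators that gather at phosphorylated H2A.X, Mdc1 had 62.7 and 69.1 CPM in R213G and 61.8 and 60.7 CPM in WT. Trp53bp1, which encodes 53BP1, had 27.5 and 22.5 CPM in R213G and 26.5 and 20.1 CPM in WT (0.10 ± 0.23).

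End-joining genes had a median log2 fold change of -0.096, with 3 of 6 positive. The median was 0.078 over the 5 of them with a mean of at least 5 CPM, which leaves out Xrcc5. Lig4, the ligase that seals the ends, had the lowest fold change of the 47 genes. It had 2.08 and 6.47 CPM in R213G and 9.59 and 8.25 CPM in WT, with no overlap (log2 fold change -1.05 ± 0.49, unadjusted p = 0.058, edgeR). R213G replicate 1 was the low library, and the fold change was -0.46 without it and -2.10 without R213G replicate 2. Xrcc4, the scaffold that holds LIG4, had the opposite sign, with 8.82 and 14.5 CPM in R213G and 8.11 and 8.10 CPM in WT (0.52 ± 0.36).

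Prkdc, the DNA-dependent kinase that Ku recruits to an end, had 18.0 and 29.0 CPM in R213G and 31.1 and 32.0 CPM in WT (-0.42 ± 0.24 on the log2 scale, unadjusted p = 0.118, edgeR), again with R213G replicate 1 lowest. Of the Ku subunits, Xrcc6 (Ku70) had the highest level of the group per kilobase at 3.84, with 19.1 and 16.7 CPM in R213G and 14.9 and 18.0 CPM in WT. Xrcc5 (Ku80) had only 1.99 and 4.97 CPM in R213G and 3.39 and 4.98 CPM in WT. Dclre1c, the hairpin-opening nuclease Artemis, stood at 0.07 ± 0.22.

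Single-strand break and mismatch repair genes had the narrowest range of fold changes of the 6 groups. Their log2 fold changes ran from -0.05 to 0.13 with a median of 0.017, and their mean log2 CPM was 5.55 and 5.54 for R213G against 5.50 and 5.55 for WT. These genes stood at 26.9 CPM or more in every library. Over all members, the median gap between libraries was smaller at 30 CPM or more than under 10 CPM, a comparison that was not split by role. The part of level in this narrow range was not tested. Parp1 had 160 and 168 CPM in R213G and 162 and 171 CPM in WT (-0.03 ± 0.12, unadjusted p = 0.826, edgeR). Parp2 had 33.0 and 36.6 CPM in R213G and 29.8 and 33.5 CPM in WT (0.13 ± 0.18). Lig3, the ligase of this pathway, had 46.0 and 35.4 CPM in R213G and 44.2 and 40.2 CPM in WT (-0.05 ± 0.19). Rffl, on the other strand, shares 25.1% of the exon bases of Lig3. The scaffold Xrcc1 lay between 32.4 and 33.9 CPM in all 4 libraries. Msh6, which recognises mismatches, had 27.1 and 30.1 CPM in R213G and 26.9 and 28.8 CPM in WT. In all 5 genes the genotypes overlapped.

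Proteins that work as partners need not have transcripts that keep a fixed ratio, and 9 such pairs were compared as ratios of CPM per kilobase within each library, which do not depend on library scaling. The pairs were picked after the values were seen, so the ratios carry no test. In 4 pairs the genotypes did not overlap and in 5 they did. Which genotype has the higher ratio depends on which gene is the numerator, and no share over other gene pairs was computed. The ratio of Xrcc4 to Lig4 was 5.23 and 2.76 in R213G against 1.04 and 1.21 in WT. For Eme1 to Mus81 it was 1.82 and 1.54 against 0.302 and 0.858.

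The ratio of Brca2 to Palb2 was 2.41 and 1.47 in R213G against 0.675 and 0.746 in WT. Which partner had the higher level rests on the exon lengths used, which join all exons of a gene. For Rad50 to Mre11a the ratio was 3.24 and 1.93 against 1.86 and 1.37, a narrow separation. By contrast Brca1 to Bard1 stayed between 1.01 and 1.43 in all 4 libraries and Xrcc1 to Lig3 between 0.913 and 1.15. Xrcc5 to Xrcc6 was 0.182 in R213G replicate 1 and 0.400 to 0.521 elsewhere.

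**Figure D4:**
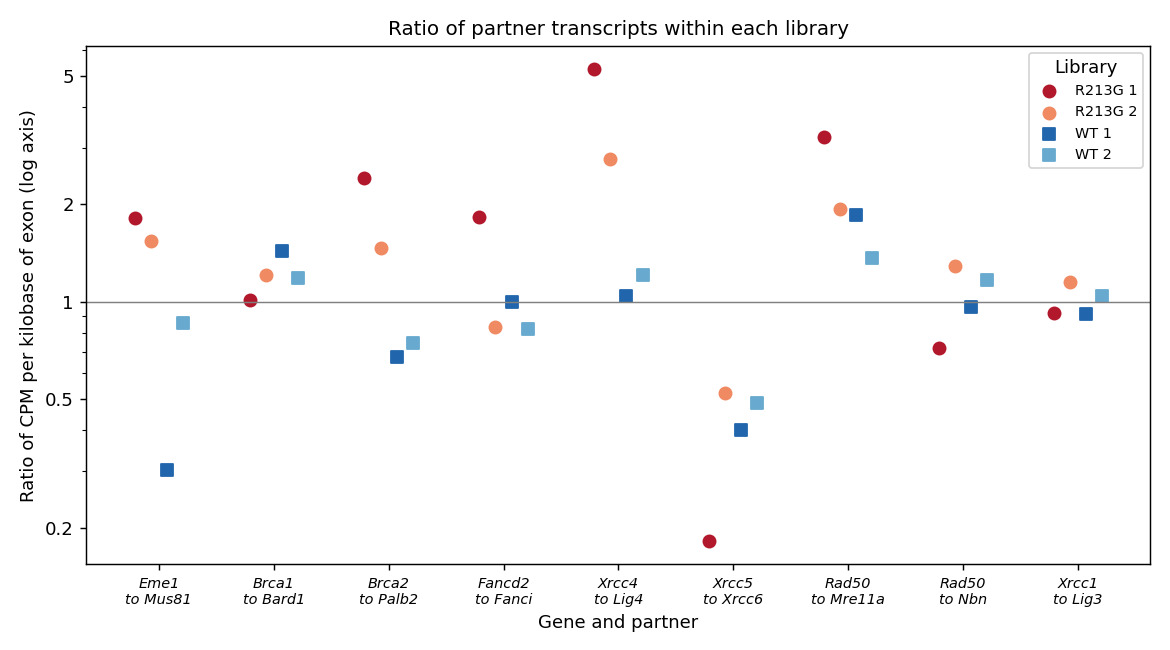
Ratio of CPM per kilobase of exon between partner genes in each library, on a log axis with a line at 1. Both R213G libraries (circles) lie above both WT libraries (squares) for Eme1 to Mus81, Brca2 to Palb2, Xrcc4 to Lig4 and Rad50 to Mre11a, and the other 5 pairs overlap.

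The libraries also differed in the level of cell division genes, and these values stand beside the repair genes. In replicates 1 and 2, the mean log2 CPM of 24 S-phase genes was 4.89 and 5.17 for R213G against 4.50 and 5.06 for WT, and that of 20 mitosis genes was 5.41 and 5.92 against 4.92 and 5.85. WT replicate 1 was the lowest library for 17 of the 24 S-phase genes and 18 of the 20 mitosis genes. It was also the lowest for 23 of the 47 repair genes (48.9%), beside 24.4% of all genes tested, among them 8 of the 13 recombination genes and 4 of the 6 nuclease and restart genes. WT replicate 2 lay above WT replicate 1 in 36 of the 47 repair genes (76.6%), in all 24 S-phase genes and in all 20 mitosis genes. R213G replicate 2 lay above R213G replicate 1 in 34 of the 47 (72.3%), in 21 S-phase genes and in 19 mitosis genes.

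Markers of dendritic cells ran opposite within each genotype: the summed level of Flt3, Zbtb46, Xcr1, Ccr7 and Cd209a came to 136 and 43.5 CPM in replicates 1 and 2 of R213G, against 152 and 39.3 CPM for WT, with Xcr1 at 0 in replicate 1 of both genotypes. The summed level of the epithelial genes ran the same way, at 221 and 102 CPM for R213G and 165 and 99.1 CPM for WT. Of these genes only Cdh1 and Epcam fell from replicate 1 to replicate 2. Scgb1a1, Krt18 and Sftpc, all at low levels, were higher in replicate 2 of both genotypes. Krt8 had counts only in WT replicate 2. The sum of the 3 B cell genes also fell, at 23.9 and 8.10 CPM against 18.5 and 6.59 CPM, mostly Ighm. The part of cell division or of these markers in the levels of the repair genes was not tested.

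**Figure D5:**
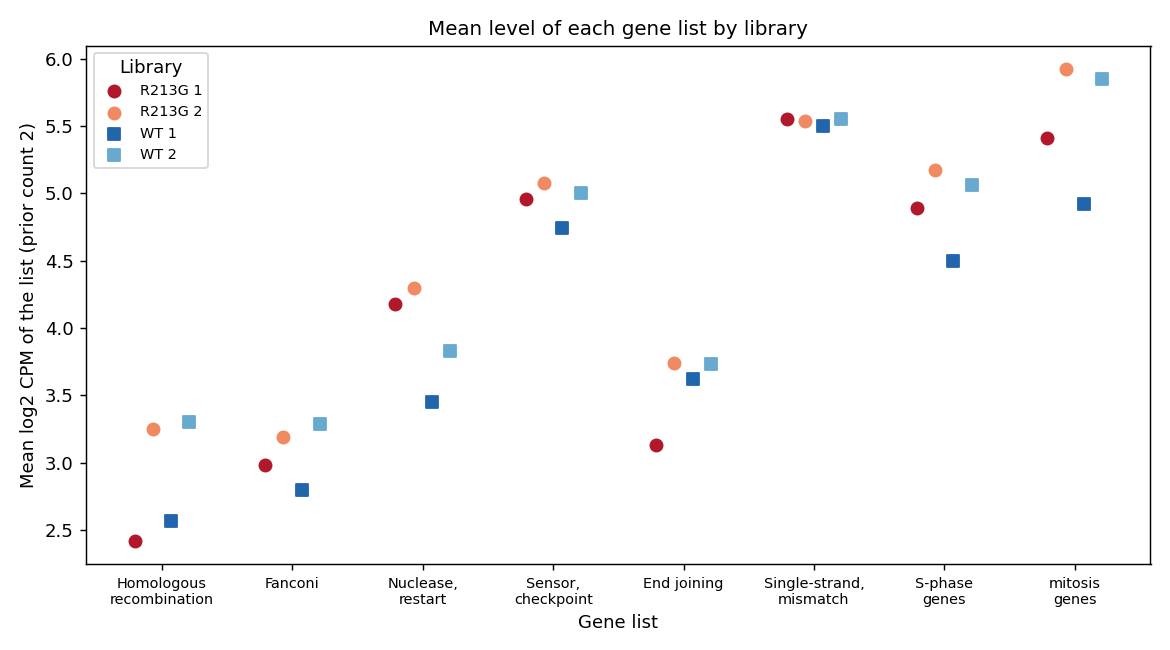
Mean log2 CPM (prior count 2) of the 6 repair groups and of S-phase and mitosis genes in each library. WT 1 is the lowest library for S-phase (4.50) and mitosis genes (4.92), replicate 1 of both genotypes is low for recombination genes (2.42 and 2.57), and the single-strand and mismatch group lies between 5.50 and 5.55. The recombination mean of R213G 1 (2.42) includes Rad51b at 0 counts.

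R213G replicate 1 was the lowest library for 15 of the 47 genes (31.9%), beside 36.5% of all genes tested. Those were mostly low genes: it was lowest for 8 of the 15 members with a mean under 10 CPM (53.3%, beside 41.2% of all genes tested at that level) and for 4 of the 21 members between 10 and 30 CPM (19.0%, beside 31.4%). In the latter range WT replicate 1 was lowest for 13 of 21 (61.9%, beside 27.7%). The median gap on the log2 scale was 0.99 between the R213G libraries and 0.65 between the WT libraries for members under 10 CPM, and 0.13 and 0.17 for the 11 members of 30 CPM or more. The 8 low members that were lowest in R213G replicate 1 were Palb2, Lig4, Rad51b, Rad54b, Exo1, Fancb, Xrcc5 and Fanci. In Rad54b that library lay beside WT replicate 1, with 85 counts in each, and in Fanci it had 6.15 CPM against 6.96 CPM in WT replicate 1.

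Other genes of the same pathways were read from lists made with the members. None passed the test in either direction. Of 25 other recombination genes 17 were positive with a median of 0.175, with Rpa2, a subunit of the single-strand binding protein, at 0.50 ± 0.30 and Swi5 at 0.23 ± 0.15. Of 19 other Fanconi and translesion genes 7 were positive with a median of -0.118, and the nuclease gene Ercc4 had 16.5 and 26.1 CPM in R213G and 32.5 and 29.2 CPM in WT (-0.54 ± 0.25). Poli, a polymerase that copies past lesions, had 7.73 and 5.86 CPM against 11.1 and 10.00 CPM (-0.63 ± 0.35). Ercc4 and Poli were among the 5 of these 19 genes (26.3%) with both R213G libraries below both WT libraries, beside 15.2% of all genes tested. For 2 of the 19 (10.5%) both R213G libraries lay above both WT libraries, beside 13.7%.

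Of 15 other fork protection and checkpoint genes in the count table, 7 were positive with a median of -0.026. Timeless, which couples the helicase to the polymerase at a fork, had 24.8 and 22.1 CPM in R213G and 9.11 and 17.8 CPM in WT (0.80 ± 0.31 on the log2 scale, unadjusted p = 0.029, edgeR), with WT replicate 1 lowest. Rad1, part of the clamp loaded at damaged forks, stood at -0.67 ± 0.39. Of 12 other end-joining genes 7 were positive with a median of 0.025, with Aptx at -0.35 ± 0.24.

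Base excision genes had 11 of 17 positive and a median of 0.071. The flap nuclease Fen1 had 55.4 and 50.3 CPM in R213G and 37.3 and 44.7 CPM in WT (0.37 ± 0.17). Gm10143 and Tmem258, on the other strand, share 84.2% of the exon bases of Fen1, so its counts are uncertain. The uracil glycosylase Ung had 11.7 and 9.63 CPM in R213G against 6.20 and 6.96 CPM in WT (0.69 ± 0.34). Mismatch repair genes other than Msh6 were positive in 6 of 6 with a median of 0.134, among them Msh3 at 0.55 ± 0.41. Nucleotide excision genes had 8 of 14 positive and a median of 0.086, with Ercc6 at -0.37 ± 0.18.

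S-phase genes had 19 of 24 positive with a median of 0.260, and mitosis genes 18 of 20 with a median of 0.166. Ccne1, the cyclin that starts S phase, stood at 0.86 ± 0.31 and the helicase subunit Mcm2 at 0.47 ± 0.18. The mitotic kinase Cdk1 stood at 0.53 ± 0.27 and the spindle protein Nusap1 at 0.41 ± 0.29. The positive share was 68.1% for the repair genes, 79.2% for the S-phase genes and 90.0% for the mitosis genes, beside 49.1% of all genes tested. Without WT replicate 1 the median of the repair genes was near 0. The part of cell division in these values was not tested.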

How the data were processed

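The values are counts of reads for each gene symbol, deposited by the authors without normalization. STAR 2.5.1b, featureCounts, Subread 1.4.4 and the build GRCm38 are named in the submitters' processing notes. Strand setting, annotation and the handling of multi-mapping reads: not given in the sources used here. The libraries were made with a directional kit, per the labels' protocols. By GENCODE vM21, 18 of the 47 genes share exon bases with another gene of the table, 9 of them over 10%. Columns were matched to libraries by the short names in the labels.

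Genes were tested with the edgeR 4.0.16 quasi-likelihood test (its newer form, robust), TMM, filterByExpr and Benjamini-Hochberg adjustment over 13575 genes, with a threshold of 0.05, in R 4.3.3. The common dispersion was 0.14, with 2 residual degrees of freedom. The SE is the log2 fold change divided by the square root of F. With 2 libraries a genotype, a two-sided exact permutation test cannot go below p = 0.333, so none was run. Exon lengths are the union of the GENCODE vM21 exons of a gene. List levels are means of log2 CPM (prior count 2). The scripts were tested on simulated data. Alternatives were other scalings, filters and tests (DESeq2 1.42.0, limma 3.58.1), a replicate block and leaving out each library.

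The members and gene lists were chosen with earlier results of these data known. Values in every library were given for the 3 members of smallest p and the member of highest level per kilobase in each of the 6 groups, with the other members by range or fold change, and for other lists the 2 genes of smallest p, of which some are not reported here. The values given beyond that rule, such as those of Rad51c, Xrcc2, Xrcc3, Brca2, Mus81, Chek1, Fancb and Mdc1, the 9 partner pairs and the promoter motifs were chosen after the values were seen.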

Additional observations from a re-analysis of the deposited data

How the results depend on the processing

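With upper-quartile scaling or DESeq2 size factors, without a filter or with one of a mean of at least 5 CPM, and with the legacy form of the edgeR test, limma voom, DESeq2 and the replicate block, no member was called and the log2 fold change of each member tested kept its sign (40 of the 47 were tested under the 5 CPM filter). DESeq2 called 1 gene of the whole table, which is no member. The number of members at an unadjusted p under 0.05 was 4 by limma voom, with Palb2 and Lig4 beside Primpol and Eme1. With 1 library left out, the lone library of a genotype is assumed to vary like the other genotype's. The number of genes called over the whole table was then 0 to 2, with 2 when R213G replicate 2 was left out, and 0 members were called in any case. The number of members at an unadjusted p under 0.05 was 0 to 12: 7 without R213G replicate 1, 12 without R213G replicate 2, 0 without WT replicate 1 and 3 without WT replicate 2. The median log2 fold change of the members was -0.005 to 0.246. Between the left-out libraries 24 of the 47 members kept 1 sign. The other 23 changed sign, with these lowest and highest values: Brca1 (-0.22 to 0.91), Brca2 (-0.04 to 0.63), Rad51b (-9.42 to 0.23), Rad51c (-0.75 to 0.70), Rad54b (-0.96 to 0.61), Blm (-0.36 to 0.89), Exo1 (-0.72 to 0.28), Fanci (-0.60 to 0.36), Nbn (-0.02 to 0.73), Atr (-0.16 to 0.29), Xrcc1 (-0.01 to 0.04), Xrcc3 (-0.28 to 1.29), Xrcc5 (-1.08 to 0.24), Xrcc6 (-0.00 to 0.27), Lig3 (-0.25 to 0.12), Trp53bp1 (-0.09 to 0.31), H2afx (-0.08 to 0.75), Parp1 (-0.07 to 0.01), Dclre1c (-0.17 to 0.28), Slx4 (-0.01 to 0.21), Rbbp8 (-0.09 to 0.25), Topbp1 (-0.21 to 0.24), Msh6 (-0.04 to 0.11). The value of Rad51b without R213G replicate 2 rests on a library at 0 counts and is no bound. The cause of these changes was not tested beyond the smaller number of libraries.

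Replicate numbers recur in both genotypes, but the labels tie them to no shared animal or day, so the numbers were not taken to pair the libraries. The deviations of same-numbered libraries correlated at 0.0926 over 13575 genes. That value is over all genes and does not describe single lists: most recombination, S-phase and mitosis genes were higher in replicate 2 of both genotypes. With a replicate block 0 genes and 0 members were called, 2 members were at an unadjusted p under 0.05 and the median log2 fold change of the members was 0.105. Total counts differed little between libraries. Depth sets the limit of 3 counts for Rad51b in R213G replicate 1, and its part in the gaps between libraries of other low members was not tested.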
